A study of Saccharomyces cerevisiae with 4 samples.

Results

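The 10 genes described here carry sulfate into budding yeast (Saccharomyces cerevisiae) and reduce it to sulfide, or feed the same route from an organic sulfur source: SUL1, SUL2, MET3, MET14, MET16, MET5, MET10, MET1, MET8 and JLP1. They were chosen by gene symbol in the array's annotation, and all 10 were found, each on 1 probe set (the set of array probes for a transcript), among 5449 measured S. cerevisiae genes. Cells of the wild type strain W1588-4c were grown in YPD, a rich glucose medium, to log phase. In the treated group the drug ebselen, an organic selenium compound with high reactivity toward thiols, was added at 100 µM for 3 h (2 arrays). The control group received its solvent DMSO (2 arrays), and the labels give no exposure time of its own for it. Both groups share the strain, the medium and the growth phase. The labels call the arrays of a group biological replicates and do not say which cultures were grown side by side; p-values measure the spread between these arrays only. RNA was hybridized to Affymetrix Yeast Genome 2.0 arrays.

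Yeast builds methionine and cysteine from sulfate. Permeases take sulfate up, ATP sulfurylase and APS kinase activate it to 3′-phosphoadenylyl sulfate (PAPS), PAPS reductase turns this into sulfite with electrons from thioredoxin, and sulfite reductase, an NADPH enzyme that carries the cofactor siroheme, makes sulfide. Transcription of the route depends on the activator Met4, which reaches promoters through Cbf1, Met28, Met31 and Met32 and is held back by the ubiquitin ligase subunit Met30 when sulfur amino acids are plentiful.

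Values are log2 expression relative to the gene's own median over the 4 arrays, with the base of the logarithm assumed. Levels of different genes can therefore not be compared, and presence of a marker of the strain or cell type cannot be checked. Where the groups do not overlap, this centring makes the inner DMSO value and the inner ebselen value of a gene mirror each other. A change is ebselen minus DMSO on the log2 scale, ± its standard error (SE, n = 2 arrays per group) from limma, and an adjusted p is limma's after Benjamini-Hochberg over all 5449 genes. Fell and rose mean past a threshold of 0.05. Over all genes the difference between arrays had an SD of 0.116 within DMSO, 0.143 within ebselen and 0.726 to 0.731 from group to group. In the ebselen arrays, 8 yeast control transcripts gave a lower signal from their 5′ than from their 3′ probe sets, by a mean of −0.75 ± 0.26 (SD over 8 transcripts) relative to DMSO. This difference lies between the same arrays as every change below, and its part in them was not tested. When each array was scaled on its hybridization controls, transcripts added to the hybridization mix, the median over all genes went from −0.03 to −0.39, and changes are therefore relative to that median. Probe sets taken as those of fission yeast, another species, gave a further yardstick. The 99th percentile of their absolute change was 0.60, and for 42.5% of them the groups did not overlap. Their 1st percentile of change was −0.34, and all 10 sulfate genes lay below it. Changes below 0.60 in absolute size, that of MET8 (−0.43) included, thus lie within the 99th percentile of absolute change of these probe sets, also where they passed the test. Taken by direction, the fall of MET8 lay past their 1st percentile of −0.34, so the marks differ for falls of that size.

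All 10 sulfate genes fell with ebselen, from 4.38-fold for the permease SUL1 to 1.34-fold for the siroheme enzyme MET8. Their median change was −1.27, a 2.41-fold fall, against −0.03 over all genes. As background, 38.8% of all genes passed the same limma test as lower and 33% as higher, so a fall alone is common in these arrays. Rises made up 45.9% of all calls, and 16.9% with scaling on the hybridization controls. A fall of at least 2-fold was less common: 6 of the 10 sulfate genes had one, against 7.56% of all genes. The ebselen arrays lay below the DMSO arrays without overlap for 10 of 10 members and for 46.1% of all genes. All 10 also passed as lower with scaling on the hybridization controls, as did 58.3% of all genes. Calls under that scaling followed the size of the change and do not measure a gene's own spread. For example, the regulator genes CBF1 (SE 0.16 as deposited) and GCN4 (SE 0.051) both stood at −0.66 there. Both had a limma adjusted p of 1.68e-06. In the methods' t-test after Benjamini-Hochberg adjustment all 10 passed as lower, as did 25.9% of all genes. With 2 arrays against 2, an exact permutation test of a single gene cannot give a p under 0.333, so the adjusted p values rest on limma's sharing of the spread across genes.

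**Figure D1:**
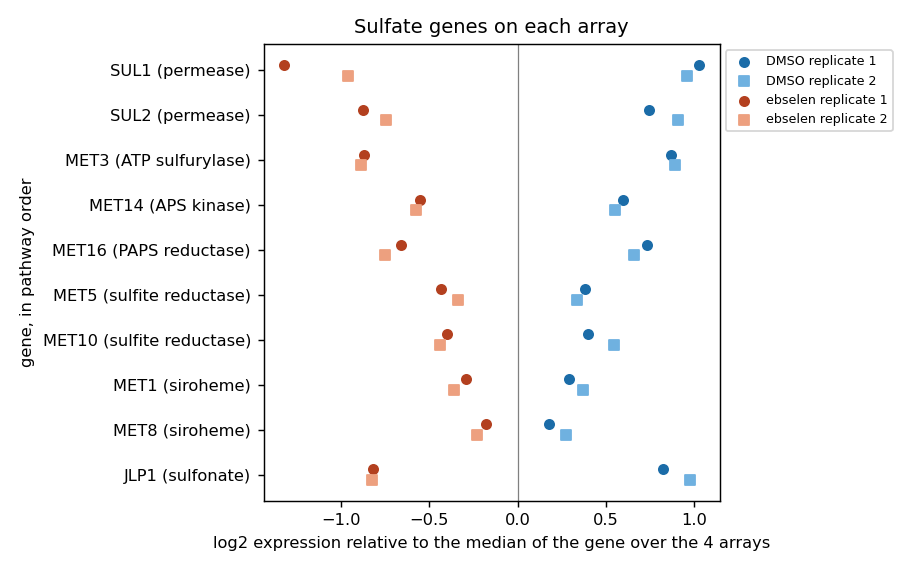
Log2 expression of each sulfate gene relative to its median over the 4 arrays (x axis), with genes in pathway order (y axis) and a point for each DMSO (blue) and ebselen (red) array. Both ebselen arrays sit below both DMSO arrays for all 10 genes, and the distance between groups is widest for SUL1 and narrowest for MET8.

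Uptake was represented by SUL1 and SUL2, the high-affinity sulfate permeases of the plasma membrane. SUL1 (YBR294W) stood at 1.03 and 0.96 in the DMSO arrays and at −1.32 and −0.96 in the ebselen arrays. The ebselen arrays differed from each other by 0.36, the widest replicate gap among the members, yet the groups lay far apart. Its change was −2.13 ± 0.12 (adjusted p = 0.000111), a 4.38-fold fall with a 95% confidence interval of 3.51 to 5.46. SUL2 (YLR092W) stood at 0.74 and 0.91 in DMSO and at −0.87 and −0.74 in ebselen, a change of −1.63 ± 0.082 or 3.10-fold (2.68 to 3.59). Both permease genes thus fell, and SUL1 fell further. The log ratio of SUL1 to SUL2 within an array changed by −0.50, and by −0.73 to −0.27 over the 4 pairings of an ebselen with a DMSO array. Only 1.5% of all genes had a lower change than SUL1, and 2.83% a lower one than SUL2.

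Activation of sulfate takes place in the steps of MET3 and MET14. MET3 (YJR010W), ATP sulfurylase, which makes adenylyl sulfate (APS) from sulfate and ATP, stood at 0.87 and 0.89 in DMSO and at −0.87 and −0.88 in ebselen. Its replicates were nearly identical in both groups, and its change of −1.76 ± 0.050 (adjusted p = 2.11e-05) was a 3.38-fold fall (95% interval 3.09 to 3.69). MET14 (YKL001C), APS kinase, which phosphorylates APS to PAPS, stood at 0.60 and 0.55 in DMSO and at −0.55 and −0.57 in ebselen. It fell 2.20-fold (−1.14 ± 0.052). The gene of the first activation step thus fell further than that of the next, with the log ratio of MET3 to MET14 changed by −0.62 (−0.65 to −0.58 over the array pairings).

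Reduction of PAPS to sulfite is the step of MET16 (YPR167C), PAPS reductase. MET16 stood at 0.73 and 0.66 in DMSO and at −0.66 and −0.75 in ebselen, which is a change of −1.40 ± 0.061 (adjusted p = 5.45e-05) or 2.64-fold (95% interval 2.37 to 2.94). Its fall was larger than that of MET14, the gene of the preceding step. The log ratio of MET14 to MET16 changed by 0.26 (0.21 to 0.31 over the array pairings).

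Sulfite reductase consists of subunits encoded by MET5 and MET10, and both fell by less than 2-fold. MET10 (YFR030W), which encodes the alpha subunit, stood at 0.40 and 0.54 in DMSO and at −0.40 and −0.44 in ebselen, a change of −0.89 ± 0.068 (1.85-fold). MET5 (YJR137C), which encodes the beta subunit, stood at 0.38 and 0.34 in DMSO and at −0.43 and −0.34 in ebselen, a change of −0.74 ± 0.059 (1.68-fold). The change of the log ratio of MET5 to MET10 was 0.15, and over the array pairings it ran from −0.01 to 0.30, so the subunits could not be told apart. MET5 in turn fell less than MET16, the gene of the step before it, whose log ratio to MET5 changed by −0.66 (−0.76 to −0.55).

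Siroheme, the cofactor of sulfite reductase, is made by MET1 and MET8, which had the smallest falls of the 10. MET1 (YKR069W), a methyltransferase that acts on uroporphyrinogen III, stood at 0.29 and 0.37 in DMSO and at −0.29 and −0.36 in ebselen. Its change was −0.66 ± 0.059 (1.58-fold). MET8 (YBR213W), the dehydrogenase and ferrochelatase that completes siroheme, stood at 0.18 and 0.27 in DMSO and at −0.18 and −0.23 in ebselen. It fell 1.34-fold (−0.43 ± 0.060, adjusted p = 0.00194, 95% interval 1.21 to 1.49), and 25% of all genes had a lower change. MET1 fell further than MET8, as the log ratio between them changed by −0.23 (−0.25 to −0.22).

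JLP1 (YLL057C) encodes a dioxygenase that releases sulfite from sulfonates such as taurine, an entry to the route that bypasses sulfate. It stood at 0.82 and 0.98 in DMSO and at −0.82 in both ebselen arrays. Its 3.29-fold fall (−1.72 ± 0.069, adjusted p = 4.76e-05, 95% interval 2.92 to 3.72) was close to those of MET3 and SUL2.

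**Figure D2:**
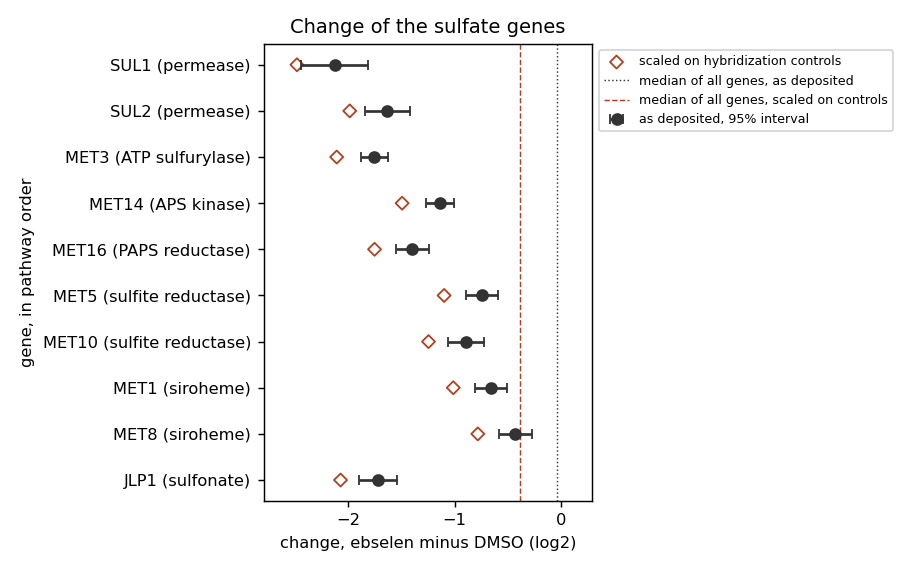
Change of each sulfate gene, ebselen minus DMSO on the log2 scale (x axis), in pathway order (y axis): filled points with 95% confidence intervals are the values as deposited, open diamonds those scaled on the hybridization controls, and vertical lines the median of all genes under each scaling. SUL1, SUL2, MET3 and JLP1 lie lowest, from −2.13 to −1.63, and MET8 lies nearest to the median of all genes under both scalings.

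Ordered by change, the genes ran SUL1, MET3, JLP1, SUL2, MET16, MET14, MET10, MET5, MET1, MET8. The 4 pairings of an ebselen with a DMSO array give each gene a range of differences, and neighbours whose ranges overlap were not separated by the spread of their arrays. This was so for MET3 with JLP1, JLP1 with SUL2, MET10 with MET5, and MET5 with MET1. SUL1, MET16, MET14 and MET8 had ranges clear of their neighbours. Centred values keep no signal levels, so the part of signal level in this order was not tested. As deposited, genes of uptake, activation, PAPS reduction and sulfonate use all fell by more than 2-fold, and those of sulfite reductase and its cofactor by less. Scaled on the hybridization controls, 9 members fell by at least 2-fold, as did 15.8% of all genes. The longest coding regions belong to MET5 (4329 bases) and MET10 (3108 bases). Across all genes change and coding length had a correlation of 0.19, a description over genes that share the same 4 arrays. With the linear trend on coding length removed, MET5 stood at −1.10, MET10 at −1.09 and MET14 at −1.03, so the smaller fall of sulfite reductase than of MET14 did not hold there, and the log ratio of MET16 to MET5 changed by −0.21 instead of −0.66. In that fit 8 members and 7.41% of all genes fell by at least 2-fold.

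Enzymes that turn sulfide into homocysteine, methionine, cysteine and S-adenosylmethionine were described from a list of 18 genes, all measured. Of these 9 fell, 4 rose and 5 did not pass, with a median change of −0.16 against −0.03 for all genes, of which 38.8% fell and 33% rose. The largest falls were those of STR3, cystathionine beta-lyase (−1.20 ± 0.053), MET2, homoserine acetyltransferase (−0.99 ± 0.050), and HOM3, aspartate kinase (−0.61 ± 0.055). MET17, the sulfhydrylase that takes up the sulfide made by the pathway, changed by −0.25 ± 0.051 (limma adjusted p = 0.00832, and 0.0607 without DMSO replicate 2), a smaller change than that of any sulfate gene.

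In the opposite direction, MHT1, which methylates homocysteine with S-methylmethionine, rose by 0.91 ± 0.061. MET13, a methylenetetrahydrofolate reductase, rose by 0.49 ± 0.14. Its change was 0.29 without DMSO replicate 1. Its limma adjusted p went from 0.0228 to 0.0695 without ebselen replicate 2, and its adjusted p was 0.180 in the methods' t-test. MET7, a folylpolyglutamate synthetase, rose by 0.32 ± 0.055 and SAH1, S-adenosylhomocysteine hydrolase, by 0.28 ± 0.050. Scaled on the hybridization controls, MET7 and SAH1 were at −0.032 and −0.070 and MET13 at 0.14, none of them past the test, while MHT1 was still higher (0.55). The genes that did not pass were HOM6 (−0.15), MET12 (−0.09) and the S-adenosylmethionine genes SAM1 (0.11), SAM2 (0.14) and SAM4 (0.17). Some passed in other settings: SAM4 passed as higher without ebselen replicate 2 (0.24), SAM4 and SAM2 with quantile normalization (0.21 and 0.18), and HOM6 and MET12 as lower with the fission yeast probe sets centred on 0 (−0.22 and −0.15). SAM1, SAM2 and SAM4 turned negative with scaling on the hybridization controls (−0.25, −0.22 and −0.18), where they did not pass. MET6, methionine synthase, fell by 0.17 on the log2 scale, with a limma adjusted p of 0.0261 that lay between 0.0543 and 0.149 with any of the 4 arrays left out.

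A list of 10 regulator genes held those of the Met4 complex and its control, and the activator gene GCN4. Of these 6 fell, 1 rose and 3 did not pass, with a median change of −0.31 (over all genes, 38.8% fell and 33% rose). GCN4 (−0.31) and CDC34 (−0.51) were among the 6 that fell. MET28, a cofactor that helps hold Met4 on DNA, stood at 0.76 and 0.79 in DMSO and at −0.76 and −0.78 in ebselen, a change of −1.55 ± 0.051 (limma adjusted p = 2.75e-05). MET32, a zinc finger protein that recruits Met4, stood at 0.67 and 0.68 in DMSO and at −0.67 and −0.76 in ebselen, a change of −1.38 ± 0.057. Both changes were of the size seen for MET16. MET31, the paralog of MET32, moved the other way and rose by 0.42 ± 0.078, although with the methods' t-test its adjusted p was 0.0800 and with scaling on the hybridization controls it was at 0.07.

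MET30, the ubiquitin ligase subunit that restrains Met4, fell by 0.80 on the log2 scale (SE 0.12, limma adjusted p = 0.00274, and 0.0788 in the methods' t-test). The activator MET4 itself changed by −0.27 ± 0.075 (limma adjusted p = 0.0228). Its adjusted p was 0.0737 without DMSO replicate 1, 0.0768 without DMSO replicate 2 and 0.0540 without ebselen replicate 2. CBF1, which binds DNA with Met4 and also at centromeres, changed by −0.31 ± 0.16 and did not pass. Its ebselen arrays stood at −0.03 and −0.50, and it passed as lower without ebselen replicate 1, at −0.54, and stood at −0.073 without ebselen replicate 2. For CBF1, MET30 and MET4 it was ebselen replicate 2 that had the lower value. SKP1 (−0.10) and CDC53 (−0.06), shared subunits of the ligase, did not pass.

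Transporters and enzymes for other sulfur compounds formed a list of 11, of which 10 were measured and SOA1 was not analysed here. Of the 10, 7 fell and 3 rose, with a median change of −0.49 and shares over all genes of 38.8% and 33%. The cysteine transporter YCT1 stood at 1.21 and 1.19 in DMSO and at −1.38 and −1.19 in ebselen, a change of −2.48 ± 0.079 that exceeded that of any sulfate gene. SEO1, a putative permease, changed by −2.06 ± 0.089 and MUP3, a low-affinity methionine permease, by −1.41 ± 0.081. Those that rose were MMP1, the S-methylmethionine permease (0.49 ± 0.061), GNP1, a broad amino acid permease (0.30 ± 0.052), and OPT1, a glutathione transporter (0.26 ± 0.068). MMP1 and MHT1, which take up and use S-methylmethionine, thus both rose, although with scaling on the hybridization controls MMP1 was at 0.14 and did not pass. OPT1 lost its call without DMSO replicate 1 (limma adjusted p = 0.107) and without ebselen replicate 2 (0.0586), and scaled on the hybridization controls GNP1 was at −0.058 and OPT1 at −0.093.

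Genes that supply electrons, cofactors or nucleotide turnover to the reduction steps showed smaller changes in both directions: 7 of 14 fell, 2 rose and 5 did not pass, with a median of −0.23, against 38.8% lower and 33% higher over all genes. With scaling on the hybridization controls 12 of the 14 fell, against 58.3% of all genes. The largest falls were those of TRX2, a thioredoxin (−0.46 ± 0.060), ZWF1, the glucose-6-phosphate dehydrogenase that yields NADPH (−0.46 ± 0.11, not past the methods' t-test), and FMN1, riboflavin kinase (−0.42 ± 0.050). APA1, a diadenosine tetraphosphate phosphorylase, rose by 0.57 ± 0.057. HEM4, which makes the uroporphyrinogen III shared by heme and siroheme, rose by 0.51 ± 0.050, while MET1 and MET8, which use it for siroheme, fell. Scaled on the hybridization controls, HEM4 (0.16) and APA1 (0.22) did not pass. The other thioredoxin gene TRX1 (−0.08), thioredoxin reductase TRR1 (−0.14), HEM3 (−0.12), HEM2 (0.03) and APA2 (0.0032) did not pass. TRR1 passed as lower in the methods' t-test (adjusted p = 0.0241), where 5 of the list and 25.9% of all genes were lower. With the fission yeast probe sets centred on 0, TRR1 (−0.20), TRX1 (−0.15) and HEM3 (−0.19) passed as lower. In that setting 10 of the 14 and 2335 of all 5449 genes were lower.

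**Figure D3:**
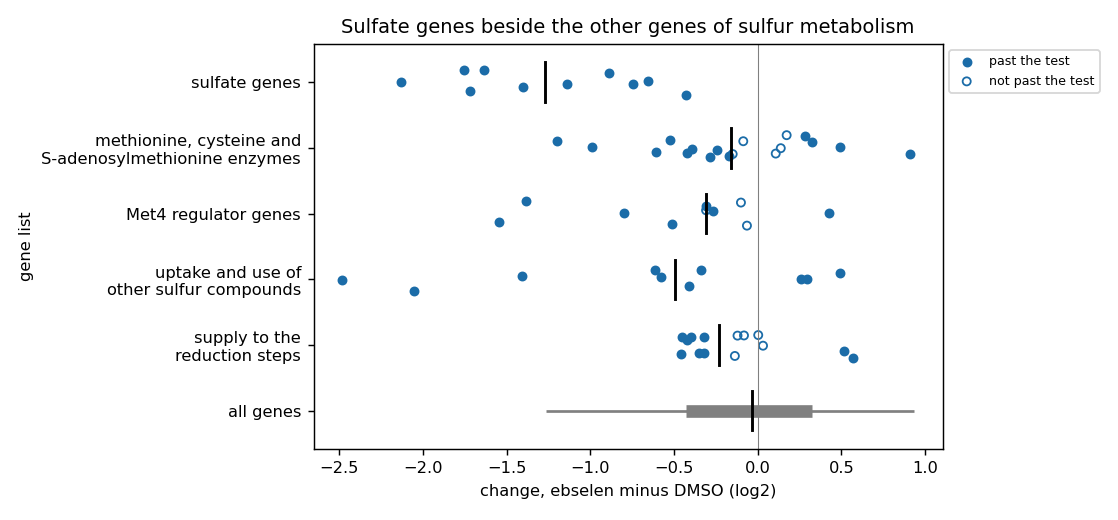
Change, ebselen minus DMSO on the log2 scale (x axis), of every measured gene in the sulfate list and 4 further lists (y axis), with filled points past limma's adjusted p of 0.05, open points not past it and a black bar at each list's median. For all genes the thin line spans the 5th to 95th percentile (−1.26 to 0.93) and the thick line the 25th to 75th (−0.43 to 0.33); the median of the sulfate genes (−1.27) lies below the thin line.

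The fall of the sulfate genes was set beside that of the genes next to them on the chromosome, by gene order in the RefSeq R64 table. No coding region of a neighbour overlapped a sulfate gene. Of 20 neighbours 17 were measured, of which 6 fell, 7 rose and 4 did not pass, with a median change of 0.04. These counts are near the shares over all genes, 38.8% lower and 33% higher. With scaling on the hybridization controls 9 of the 17 neighbours fell and 1, SMC2, rose (0.82). Of all 5449 genes 58.3% were lower and 645 higher under that scaling. The neighbours of MET5, TTI2 (0.35) and IML1 (0.48), both rose, as did those of MET10, PTR3 (0.40) and the condensin gene SMC2 (1.17). SUL1 lay between VBA2, which fell slightly (−0.23), and PCA1, which did not pass (0.04). Falls of at least 2-fold beside a sulfate gene were those of SDS24, next to MET8 (−1.26 ± 0.16), and YLL056C, next to JLP1 (−1.47 ± 0.071). Over all genes 7.56% fell that far. SDS24 thus fell further than MET8 itself.

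JLP1 lies in a stretch with other sulfur genes, which was singled out after its values were seen. Of the 12 genes up to 6 places away on either side, 11 were measured, of which 6 fell, 3 rose and 2 did not pass (38.8% and 33% of all genes fell and rose). On one side lie YLL056C (−1.47), the cysteine transporter YCT1 (−2.48), YLL054C (−0.54), YLL053C (−1.32) and the aquaporin AQY2 (−2.11), all of which fell. On the other side the glutathione transferase GTT2 fell (−2.19), and beyond it MMP1 (0.49), MHT1 (0.91) and AYT1 (0.35) rose. Scaled on the hybridization controls, MHT1 (0.55) still passed as higher, and MMP1 (0.14) and AYT1 (−0.0057) did not pass.

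**Figure D4:**
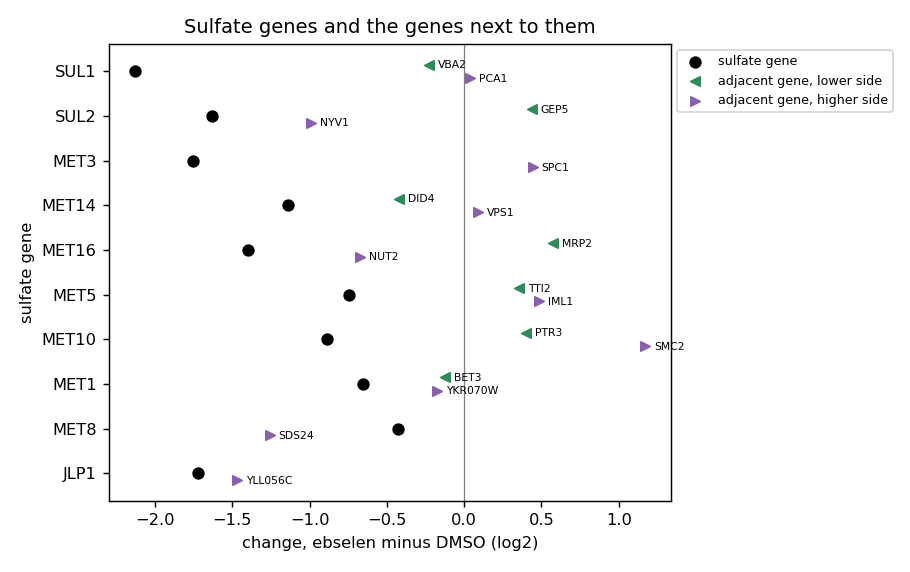
Change, ebselen minus DMSO on the log2 scale (x axis), of each sulfate gene (black circles, 1 row each) and of the measured genes directly next to it in gene order (triangles, named). The neighbours scatter on both sides of 0, from −1.47 for YLL056C to 1.17 for SMC2, while all 10 sulfate genes lie below 0.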

How the data were processed

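Arrays of 2 DMSO and 2 ebselen samples were used, grouped by their titles. The deposited log values, read as log2, came from RMA normalization by the authors, per the submitters' processing notes. Each probe set was centred on its own median in the table (medians within 5e-07 of 0). Of 10928 probe sets, 7244 had 1 gene symbol, 1 had several and 3683 had none (166 of them controls). Through Entrez IDs, 5498 were matched to 5449 S. cerevisiae genes of RefSeq R64, used for names, gene order and coding length. Another 1746 named probe sets were taken as those of fission yeast, which this array type also carries. Where a gene had several probe sets, their mean was used (47 genes). No filter on low values was possible.

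Groups were compared with limma 3.58.1 (R 4.3.3), using lmFit and eBayes with no term but group, with two-sided p-values adjusted over all genes by Benjamini-Hochberg. The residual degrees of freedom were 2, the prior ones 3.13 and the prior SD 0.063. In simulated data for this comparison (5449 genes, 200 of them changed), 98.1% of changes of 1 on the log2 scale and 80.1% of changes of 0.5 were recovered, with 4.85% false genes among the calls. Far more genes passed in the data, 2113 lower and 1796 higher, so these rates need not hold for them. Members and lists were chosen with earlier results of these data known. Named were all members, the 3 largest changes in each list's majority direction, every list gene that did not follow it, 5 regulators and the 5 genes of most similar profile. The number of arrays limits the precision. A planned search of promoters for motifs was not run. Figures were drawn with matplotlib 3.10.9.

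The replicate numbers were not taken as pairs, since no label ties them: the correlation over genes of the differences between replicates 1 and 2 in DMSO and in ebselen was −0.08.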

Additional observations from a re-analysis of the deposited data

How the results depend on the processing

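All 10 sulfate genes passed as lower in each alternative that kept all 4 arrays and the fold unrestricted. With replicate block (10 lower, 0 higher), 1971 of all 5449 genes were lower and 1670 higher. In the methods' t-test, where 25.9% of all genes were lower, the members' adjusted p ran up to 0.0392 for MET8. With each array left out in turn, the members' median change ran from −1.30 to −1.24. The replicate block moved no count of calls past 1.5 times; among the members, the 4 lists, the neighbours, the JLP1 stretch and the mating-type genes it ended the calls of MET6 (limma adjusted p = 0.0583) and of the neighbours GEP5 (0.0536) and YKR070W (0.0808). With at least 2-fold also required, 6 sulfate genes were lower, as were 412 of all genes (228 higher), 1 methionine and cysteine gene (0 higher), 2 regulators (0 higher), 3 genes for other sulfur compounds (0 higher) and 0 supply genes (0 higher). Scaling on the hybridization controls gave 3177 genes lower and 645 higher, so that 16.9% of calls were rises against 45.9% as deposited. It left 1 methionine and cysteine gene, 0 regulators, 0 genes for other sulfur compounds and 0 supply genes higher, and made 12 supply genes lower. Its control probe sets shift whole arrays, so every gene moved by the same amount. Calls under it followed the size of the change and do not measure a gene's own spread. Under it MET7 (−0.032), SAH1 (−0.070), OPT1 (−0.093), GNP1 (−0.058), HEM2 (−0.32) and APA2 (−0.35) changed sign, as did SAM1 (−0.25), SAM2 (−0.22) and SAM4 (−0.18), which were not called under either scaling, and the neighbours TTI2, PCA1 and VPS1, AYT1 and PAU18. Removal of the coding length trend gave 7 of 18 methionine and cysteine genes as higher, against 4, with 1774 of all 5449 genes higher. In the methods' t-test 0 regulators were higher, against 1, with 1233 of all genes higher. The cause was not tested. Absolute levels and signal over background are not kept in centred values, so dim probe sets could not be set apart.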

Other observations

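The 5 other genes whose 4-array profile lay nearest to the members' median profile (0.67 and 0.61 in DMSO, −0.61 and −0.66 in ebselen), by Euclidean distance over the 4 arrays, were MCM1, HEF3, RAD34, DLD3 and DIT1, at distances of 0.040 to 0.085 and with changes of −1.29 to −1.22. A profile over 2 groups of 2 arrays holds little besides the size of the change, which limits this measure. Of 6 mating-type specific genes, 4 fell and 2 did not pass, against 38.8% of all genes lower. Genes of both mating types were among those that fell. They were STE3 (−1.11 ± 0.086) and MF(ALPHA)1 (−0.43) of alpha cells, and MFA1 (−0.45) and STE2 (−0.26 ± 0.051) of a cells. MF(ALPHA)2 (−0.01) and MFA2 (−0.09) did not pass. Centred values do not show which of these genes were expressed, so signal near the floor could not be set apart.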
